A study of Mus musculus with 8 samples.

Results

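The regions described here carried strong methylated DNA signal in wild-type embryonic stem (ES) cells and ranked lower in liver and spleen. A region was a run of array probes on chromosomes 1 to 19 whose starts lay up to 500 bp apart, with 3 or more probes, and its value was the mean log2 ratio of antibody-bound over input DNA of its probes. A region was chosen when it ranked in the top 10% of all regions on the wild-type ES array and outside the top 10% on at least 3 of the 4 liver and spleen arrays. This held for 313 of 13444 regions, or 2.33%. The wild-type array had 1344 regions in its top 10%, of which 1031 were not chosen because they also ranked high in the tissues. Of the 313 regions, 276 were outside the top 10% on all 4 tissue arrays and 37 on exactly 3.

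The series had 8 arrays, each the only sample of its group. They held DNA of ES cells that were wild type, aid-/-, mbd4-/- or carried a Gadd45a knock down, and of liver and spleen from aid-/- and from mbd4-/- mice, all C57BL6/J and 6 months old. Wild-type liver and spleen were not analysed here, so every tissue array carried 1 of the 2 deletions, and tissue DNA of the aid-/- and mbd4-/- mice came from different laboratories. The strain of the ES cells, the number of clones and any pooling of animals are not given in the sources used here. With 1 array a group there was no replicate check, and no p-value is given for any comparison. The SD quoted beside some values is the scatter between the probes of 1 region on 1 array, which is not a replicate error. Neither the deletions nor the knock down was checked by these arrays, and since they measured DNA, no marker level tests the cell type of any sample.

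DNA methylation at cytosines of CpG dinucleotides is a repressive mark, and most CpG islands, the CpG-dense stretches found at many promoters, are kept free of it. Islands that do carry it include those of germline genes, imprinted genes and, in cultured cells, some islands of genes silent in those cells. AID deaminates cytidine, MBD4 binds methylated CpG and removes mismatched thymine, and GADD45A is a stress-response protein. All of these have been studied as parts of pathways that remove DNA methylation. In methylated DNA immunoprecipitation (mDIP), an antibody against the methylated base pulls down fragments according to how many methylated CpGs they hold, so a region's signal reads its CpG content as well as its methylation.

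The rule used the wild-type ES array and the 4 tissue arrays, and the values on those 5 arrays are given as descriptions. The arrays of aid-/-, mbd4-/- and Gadd45a knock down ES cells took no part in it. Wild-type and aid-/- ES cells and both aid-/- tissues were scanned in scan 1, both mbd4-/- tissues in scan 2, mbd4-/- ES cells in scan 3 and the Gadd45a knock down in scan 4, so for the latter 2 ES arrays genotype and scan cannot be told apart. Choosing on the 2 aid-/- tissue arrays of scan 1 alone gave 305 regions, with 51.8% of them in the top 10% on the aid-/- ES array, 48.5% on the mbd4-/- ES array and 26.9% on the Gadd45a array. Arrays differed in how the signal followed base composition. Probes under 40% GC had a median log2 ratio of 1.27 on the aid-/- ES array and −1.48 on the Gadd45a array, with each array's median set to 0. Values given as GC-corrected had the median of probes of like GC, in 20 bins, subtracted on each array.

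Sequences of regions that stand for the different patterns are printed first, in lower case with every CG in capitals, since the CpG is the unit the antibody reads. The first set is the probe nearest the centre of 6 regions, as designed on the array, with positions in build mm9 and the strand as on the array. Sv2c and Rbfox3 were high on all 4 ES arrays, Gm996 and Slc32a1 on all but the Gadd45a array, Samd12 on the wild-type and aid-/- arrays, and Emx2 had the lowest liver value among the regions shown.
Sv2c probe at chr13:96731321-96731365: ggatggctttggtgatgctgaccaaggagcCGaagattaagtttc
Rbfox3 probe at chr11:118768747-118768791: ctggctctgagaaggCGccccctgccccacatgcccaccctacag
Gm996 probe at chr2:25433901-25433945: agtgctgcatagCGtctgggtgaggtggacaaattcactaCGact
Slc32a1 probe at chr2:158440051-158440100: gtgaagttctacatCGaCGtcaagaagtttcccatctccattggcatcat
Samd12 probe at chr15:53734115-53734159: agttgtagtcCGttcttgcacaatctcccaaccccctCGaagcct
Emx2 probe at chr19:59541857-59541916: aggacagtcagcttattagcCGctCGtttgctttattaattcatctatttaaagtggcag
The probes were short and held few CpGs: 1 in the Sv2c and Rbfox3 probes and 2 in each of the other 4. On the wild-type ES array the 6 probes read between 1.77 (Emx2) and 3.54 (Rbfox3), and on the aid-/- liver array between −0.16 (Emx2) and 0.88 (Sv2c).

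The second set is the promoter window of 5 genes, 300 bases from 250 before to 50 after the start, from RefSeq in build GRCm38.p6 and in the direction of the gene. Each window contains at least 1 whole probe of the region with the gene's name, found by exact sequence match, because the array and the promoter table use different builds. Atf7ip was high on all 4 ES arrays, Otop3 on all but the Gadd45a array, Pax5 is the promoter of a blood cell gene, Lrrc3b was highest on the Gadd45a array, and Zfp263 was high on the wild-type array alone among the ES arrays.
Atf7ip promoter at chr6:136518601-136518900, plus strand: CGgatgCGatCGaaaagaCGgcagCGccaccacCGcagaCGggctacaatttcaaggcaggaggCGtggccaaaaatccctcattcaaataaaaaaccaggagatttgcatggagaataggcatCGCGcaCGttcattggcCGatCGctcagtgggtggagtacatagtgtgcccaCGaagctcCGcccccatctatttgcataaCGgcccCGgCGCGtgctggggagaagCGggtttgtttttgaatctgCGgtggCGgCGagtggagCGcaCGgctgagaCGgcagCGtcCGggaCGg
Otop3 promoter at chr11:115334481-115334780, plus strand: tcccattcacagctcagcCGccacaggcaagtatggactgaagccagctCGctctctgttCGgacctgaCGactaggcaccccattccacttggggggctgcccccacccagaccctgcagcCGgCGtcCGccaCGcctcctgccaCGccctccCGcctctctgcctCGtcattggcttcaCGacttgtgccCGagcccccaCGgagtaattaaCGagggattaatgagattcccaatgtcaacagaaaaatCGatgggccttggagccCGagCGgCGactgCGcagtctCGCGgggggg
Pax5 promoter at chr4:44710645-44710944, minus strand: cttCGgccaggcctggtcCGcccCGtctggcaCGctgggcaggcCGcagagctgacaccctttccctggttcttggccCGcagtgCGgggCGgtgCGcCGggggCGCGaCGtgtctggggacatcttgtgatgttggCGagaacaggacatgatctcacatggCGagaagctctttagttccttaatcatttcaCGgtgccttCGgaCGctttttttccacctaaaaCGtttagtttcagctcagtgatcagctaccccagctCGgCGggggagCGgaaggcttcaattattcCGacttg
Lrrc3b promoter at chr14:15438938-15439237, minus strand: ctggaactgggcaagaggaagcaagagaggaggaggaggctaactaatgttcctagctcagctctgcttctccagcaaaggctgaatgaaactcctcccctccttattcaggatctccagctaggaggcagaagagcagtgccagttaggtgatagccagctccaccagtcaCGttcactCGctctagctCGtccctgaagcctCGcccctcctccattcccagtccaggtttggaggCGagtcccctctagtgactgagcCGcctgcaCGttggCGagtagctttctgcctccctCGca
Zfp263 promoter at chr16:3743849-3744148, plus strand: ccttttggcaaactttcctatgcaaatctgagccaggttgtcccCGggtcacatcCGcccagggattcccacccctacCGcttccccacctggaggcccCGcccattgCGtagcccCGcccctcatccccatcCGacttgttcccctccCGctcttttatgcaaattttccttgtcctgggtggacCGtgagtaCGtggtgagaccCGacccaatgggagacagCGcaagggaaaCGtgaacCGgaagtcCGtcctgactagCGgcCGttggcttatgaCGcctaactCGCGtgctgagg
The windows held 29 CpGs for Atf7ip, 22 for Otop3, 23 for Pax5, 9 for Lrrc3b and 20 for Zfp263, where the median of all 9393 windows containing any probe of the 13444 regions was 24 and the median of all 32851 windows was 7. The 2 Atf7ip probes within the window averaged 3.15, 3.21, 4.22 and 3.34 on the wild-type, aid-/-, mbd4-/- and Gadd45a ES arrays, and 0.25 to 0.54 on the tissue arrays. The 2 Zfp263 probes averaged 1.10 on the wild-type array and −1.12, −1.05 and −1.58 on the other ES arrays in the same order.

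Most of the 313 regions lay close to the thresholds that chose them. On the wild-type array 177 were between the 90th and the 92nd percentile, 114 between the 92nd and the 95th and 22 above, with a median value of 1.26 and a range of 1.00 to 3.75. The regions of the wild-type top 10% that were not chosen had a median of 2.70. The chosen regions nearest the threshold, Kcnf1, Gpr26 and Htr1f, read 1.00 on the wild-type array, as did Bloc1s2, Foxa2 and Lhfpl5 just outside it. In the tissues the chosen regions were not at the bottom of the ranking. Their median percentile was 83.1 in aid-/- liver, 82.7 in mbd4-/- liver, 82.6 in aid-/- spleen and 85.4 in mbd4-/- spleen, and 121 of them were at or above the 80th percentile on all 4. Of the 313, 12 were below the 50th percentile on all 4 tissue arrays, and 69 below the 80th on all 4. Their tissue medians of 0.48, 0.52, 0.57 and 0.67, in the same order, stood above the array median of 0. Because so many regions lay near a threshold, the membership moved with it: with the top 5% in place of the top 10% on every array, 176 regions were chosen and 22 of the 313 were among them. With regions of 5 or more probes alone, 287 were chosen and 69 of the 313 shared a probe with them.

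**Figure D1:**
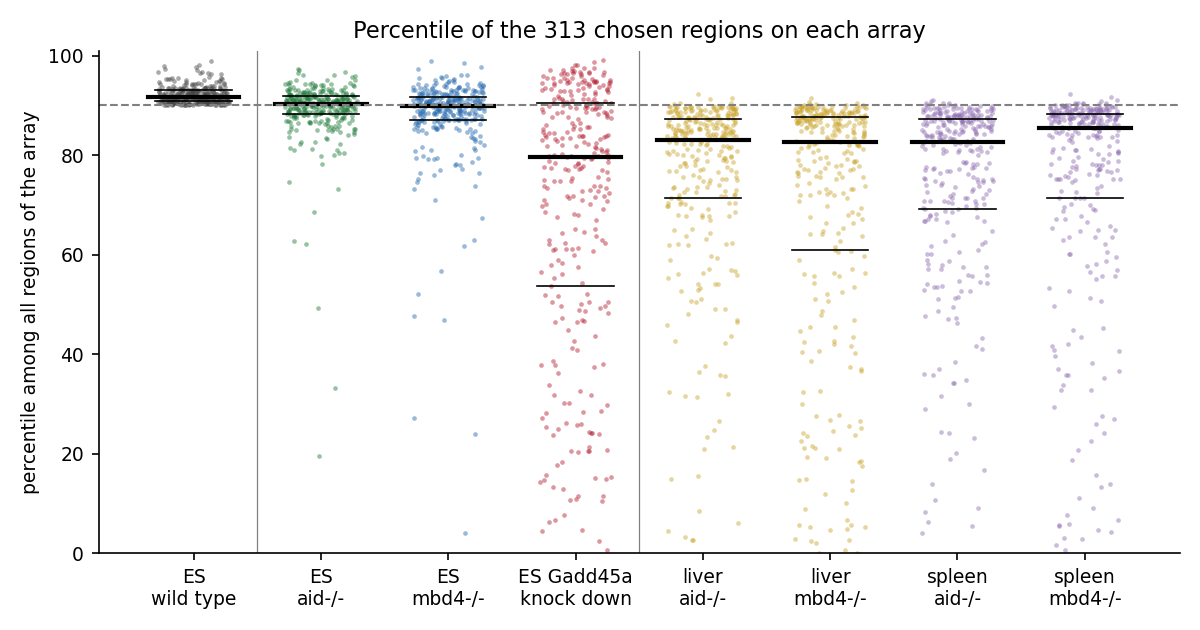
Percentile of each of the 313 chosen regions (points) among all 13444 regions, by array; the thick bar is the median, the thin bars are the quartiles and the dashed line is the 90th percentile used by the rule on the wild-type ES and the tissue arrays. On the aid-/- and mbd4-/- ES arrays the points stay near the 90th percentile, with medians of 90.2 and 89.9, while on the Gadd45a array they spread over the whole range, with a median of 79.7.

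On the 3 ES arrays the rule did not use, the chosen regions ranked high on the aid-/- and mbd4-/- arrays and were spread widely on the Gadd45a array. In the top 10% were 164 (52.4%) on the aid-/- array, 153 (48.9%) on the mbd4-/- array and 85 (27.2%) on the Gadd45a array, where 10% of all regions are by construction. Among all 12014 regions outside the top 10% on at least 3 tissue arrays, the chosen ones included, the shares were 1.89%, 2% and 5.67%. The regions of the wild-type top 10% that were high in the tissues too had shares of 96.9%, 96.3% and 62.0%. Falling outside the top 10% was mostly a near miss on the first pair of arrays. On the aid-/- array 303 of the 313 were at or above the 80th percentile and 3 below the 50th, on the mbd4-/- array 283 and 5, and on the Gadd45a array 152 and 71. After GC correction of the same 313 regions, 162, 149 and 93 were in the top 10%, in the same order. With normexp background correction the chosen regions had a Gadd45a share of 16.5%, and with the top 5% on every array 62.5%.

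The share depended on how high a region stood on the wild-type array. Between the 90th and 92nd wild-type percentile, 31.6% of the chosen regions were in the top 10% on the aid-/- array, 32.2% on the mbd4-/- array and 29.4% on the Gadd45a array. Between the 92nd and 95th the shares were 76.3%, 66.7% and 19.3%, and above the 95th, with 22 regions, 95.5%, 90.9% and 50%. In the same bands the other wild-type top regions had shares of 69.2%, 98.6% and 100% on the aid-/- array. On the Gadd45a array theirs were 15.4%, 34.3% and 80.8%, so in the lowest band the chosen regions had the higher share there and in the other bands the lower. The regions were also split by their tissue ranks, which the rule used. Of the 69 regions below the 80th percentile on all 4 tissue arrays, 42 (60.9%) were in the top 10% on the aid-/- array, 30 (43.5%) on the mbd4-/- array and 4 (5.80%) on the Gadd45a array. Of the 121 at or above the 80th on all 4 these were 59 (48.8%), 66 (54.5%) and 51 (42.1%).

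**Figure D2:**
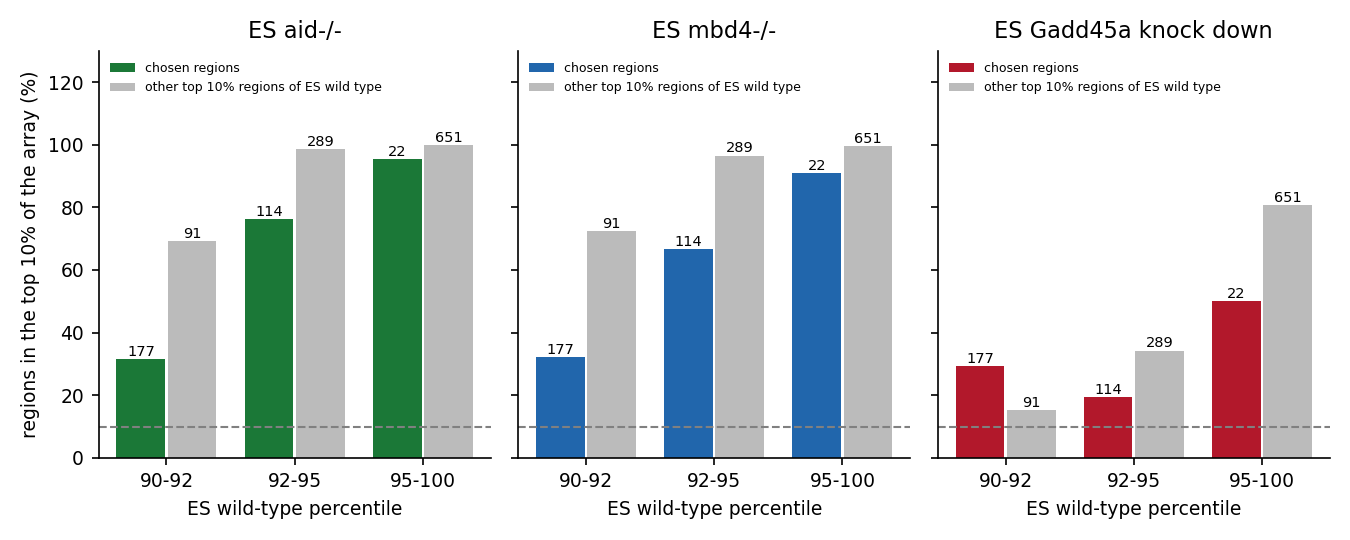
Share of regions in the top 10% (y axis, percent) of the aid-/-, mbd4-/- and Gadd45a knock down ES arrays by their percentile band on the wild-type ES array (x axis), for the chosen regions (coloured) and the other wild-type top 10% regions (grey); numbers over the bars are regions and the dashed line is the 10% of all regions. On the aid-/- array the coloured bars rise from 31.6% through 76.3% to 95.5%, and each is below its grey neighbour.

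By pattern, 40 regions were in the top 10% on all 3 of these arrays and 84 on the aid-/- and mbd4-/- arrays only. Another 34 were in it on the aid-/- array only, 22 on the mbd4-/- array only and 32 on the Gadd45a array only. The combinations of the Gadd45a array with just 1 other held 7 (mbd4-/-) and 6 (aid-/-), and 88 regions were in the top 10% on none. Across the 313 regions the values of the aid-/- and mbd4-/- arrays had a Pearson r of 0.680, those of the aid-/- and Gadd45a arrays 0.025 and those of the mbd4-/- and Gadd45a arrays 0.232. These correlations are across regions, which are not replicates, and the points share each array's depth and its trend with GC. After GC correction they were 0.666, 0.131 and 0.343. The probes of a region also scattered more on the Gadd45a array: the median SD between probes of a chosen region was 0.99 there, against 0.38, 0.48 and 0.45 on the wild-type, aid-/- and mbd4-/- arrays. The part of that scatter in the wider ranking was not tested.

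**Figure D3:**
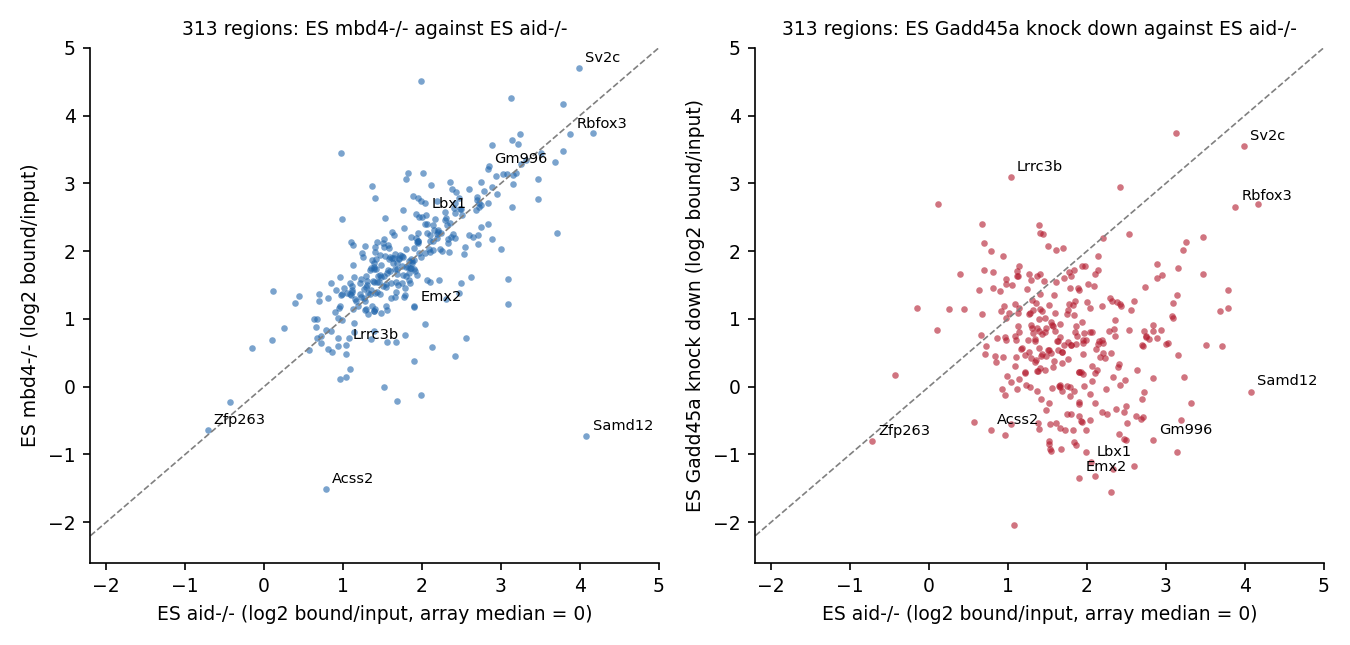
Value of each of the 313 regions (mean log2 bound over input, each array's median set to 0) on the mbd4-/- array (left) and the Gadd45a knock down array (right) against the aid-/- ES array, with the line of equal values dashed. The left cloud follows the line (r = 0.680) with Samd12 and Acss2 far below it, and the right cloud shows no such trend (r = 0.025), with Lrrc3b above the line and Gm996, Lbx1 and Emx2 far below.

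The regions highest over the 3 other ES arrays were led by a neuronal gene and kept a high value on each array. Sv2c (synaptic vesicle glycoprotein) at chr13:96731116-96731477, 4 probes, read 2.38 on the wild-type array, 3.98 on the aid-/- array, 4.70 on the mbd4-/- array and 3.55 on the Gadd45a array. In the tissues it read 0.89, 1.24, 1.10 and 1.70 in aid-/- liver, mbd4-/- liver, aid-/- spleen and mbd4-/- spleen, and it was inside the top 10% on the last of these, at percentile 90.6. The lowest ES value was thus above the highest tissue value. For the regions of this group such a separation was in part set by the choice. They were chosen as high on the wild-type array and lower in the tissues, and then as highest on the other ES arrays. Nothing is read from it. Atf7ip, a cofactor of the histone methyltransferase SETDB1, at chr6:136467067-136467757 gave the clearest separation: its 6 probes averaged 3.18, 3.13, 4.26 and 3.74 on the ES arrays in the same order and −0.23 to 0.15 in the tissues, with an SD between probes of 0.45 to 0.47 on each ES array. Rbfox3, the neuronal splicing factor known as NeuN, at chr11:118768579-118769061 read 3.33, 3.88, 3.72 and 2.65 on the ES arrays and 0.09 to 0.47 in the tissues. Its ES values and tissue values also did not overlap. The uncharacterised transcript D130017N08Rik read 3.75, 4.17, 3.75 and 2.69 on the ES arrays, the highest wild-type value of the 313 regions.

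The other 6 of the 10 highest by this measure were Espnl (an espin-like actin-bundling protein), Mfap2 (a microfibril protein), Slc7a14 (a transporter), Slitrk1 (a neuronal membrane protein), Cldn11 (a tight-junction protein of myelin and Sertoli cells) and Srcin1 (an inhibitor of SRC kinase). Their wild-type values ran from 2.19 (Cldn11) to 3.07 (Mfap2) and their Gadd45a values from 1.43 (Espnl) to 2.21 (Slitrk1). In log2 value all 6 were lower on the Gadd45a array than on the wild-type array, with the least gap for Slitrk1 (2.33 and 2.21). By percentile Slc7a14, Slitrk1 and Cldn11 ranked higher on the Gadd45a array, at 96.6, 96.7 and 95.6 against 95.6, 95.2 and 94.8. Espnl, Mfap2 and Srcin1 ranked lower on it. Slitrk1 also had the widest tissue spread, from −0.67 in mbd4-/- liver to 0.93 in aid-/- spleen.

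The 10 regions with the lowest mean percentile over the 3 other ES arrays included Zfp263, which was low on all 3, and the larger Irx3 region. The latter was at percentiles 33.2, 46.9 and 58.9 on the aid-/-, mbd4-/- and Gadd45a arrays. Others of the 10 had a higher value on the aid-/- array. Zfp263, a zinc-finger gene, at chr16:3743998-3744679 read 1.09 over 7 probes on the wild-type array, with an SD between probes of 0.27, and −0.72, −0.64 and −0.81 on the aid-/-, mbd4-/- and Gadd45a arrays, with SDs of 0.94, 0.85 and 1.03. The tissues gave −0.75 to −0.53, so the wild-type ES value was the highest of the 8, at percentile 90.8. That was in part set by the choice. Zfp263 was chosen as high on the wild-type array and lower in the tissues, and then as lowest on the other ES arrays. Nothing is read from it. Wdr67, now named Tbc1d31 and named here for its high wild-type value, at chr15:57743578-57744128 read 2.86 on the wild-type array, 0.96 on the aid-/- array, 0.11 on the mbd4-/- array and −0.13 on the Gadd45a array, where the aid-/- value was still at percentile 85.0. Acss2, the enzyme that makes acetyl-CoA from acetate, read 1.84, 0.78, −1.51 and −0.64 in the same order, and −0.95 to −0.17 in the tissues. The larger of the 2 Irx3 regions, a homeobox gene, spans 17 probes at chr8:94323540-94326175 and read 1.04, −0.43, −0.23 and 0.17. After GC correction this region's wild-type percentile was 89.8, just outside the top 10%. Its probes on the wild-type array ran from −1.34 to 3.49, and 12 of the 17 were above all 4 tissue arrays. The wild-type signal of Irx3 was therefore carried by a stretch of the region and not by all of it. Barx1 and Dlx5 (homeobox genes), Cbln1 (a synapse organiser), Nusap1 (a spindle protein), Rspo1 (a Wnt agonist) and B430212C06Rik were also among the 10, each of them under −0.5 on the Gadd45a array. After GC correction Dlx5 and Nusap1 read 0.09 and 0.22 there, and the others stayed under −0.5. Nusap1 had 3 probes with an SD of 4.15 on the wild-type array, and on every other array only 1 bound probe was above background. Without the correction these genes read higher on the aid-/- array, from 0.57 (Barx1) to 1.99 (B430212C06Rik). B430212C06Rik, Rspo1 and Dlx5 were above their wild-type log2 values there. By percentile these 3 ranked lower on the aid-/- array, at 91.2, 89.9 and 89.2 against 92.5, 90.7 and 92.6 on the wild-type array. After GC correction Dlx5 was also lower in value, at 0.97 against 1.93.

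Samd12 at chr15:53733924-53734316 split the ES arrays into pairs. All 5 of its probes lay between 2.64 and 4.24 on the wild-type array and between 3.36 and 4.96 on the aid-/- array, while on the mbd4-/- array they ran from −3.87 to 0.94 and on the Gadd45a array from −1.97 to 1.25. The tissue means were −0.62 to 0.02, so the mbd4-/- and Gadd45a means of −0.73 and −0.07 were near the tissue level. After GC correction the 4 ES means were 3.78, 3.90, −0.15 and 0.71. The corrected tissue means were −0.19 to −0.05, so the mbd4-/- mean was among them and the Gadd45a mean above them. Wild-type and aid-/- ES cells were scanned together and the other 2 were not, as for all regions.

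The widest gaps between the 3 arrays all had the Gadd45a array as the lowest. The longest of these regions was Gm996, with 25 probes over chr2:25432477-25435492. It read 2.94 on the wild-type array, 2.83 on the aid-/- array, 3.21 on the mbd4-/- array and −0.79 on the Gadd45a array, with 0.40, 0.46, 0.84 and 1.37 in the tissues. All 25 probes were lower on the Gadd45a array than on the wild-type array and than on the aid-/- array, and 23 of 25 were higher on the wild-type array than on any tissue array. The GC-corrected ES values were 2.90, 2.97, 3.19 and −0.87, so the gap was as large after the correction. Slc32a1, which loads GABA into synaptic vesicles, had 13 probes at chr2:158439467-158440727 with a median of 2.82 on the wild-type array, 3.50 on the aid-/- array, 3.40 on the mbd4-/- array and −0.61 on the Gadd45a array. Again all 13 probes were lower on the Gadd45a array than on the wild-type one, and all 13 were higher on the wild-type array than on any tissue array.

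**Figure D4:**
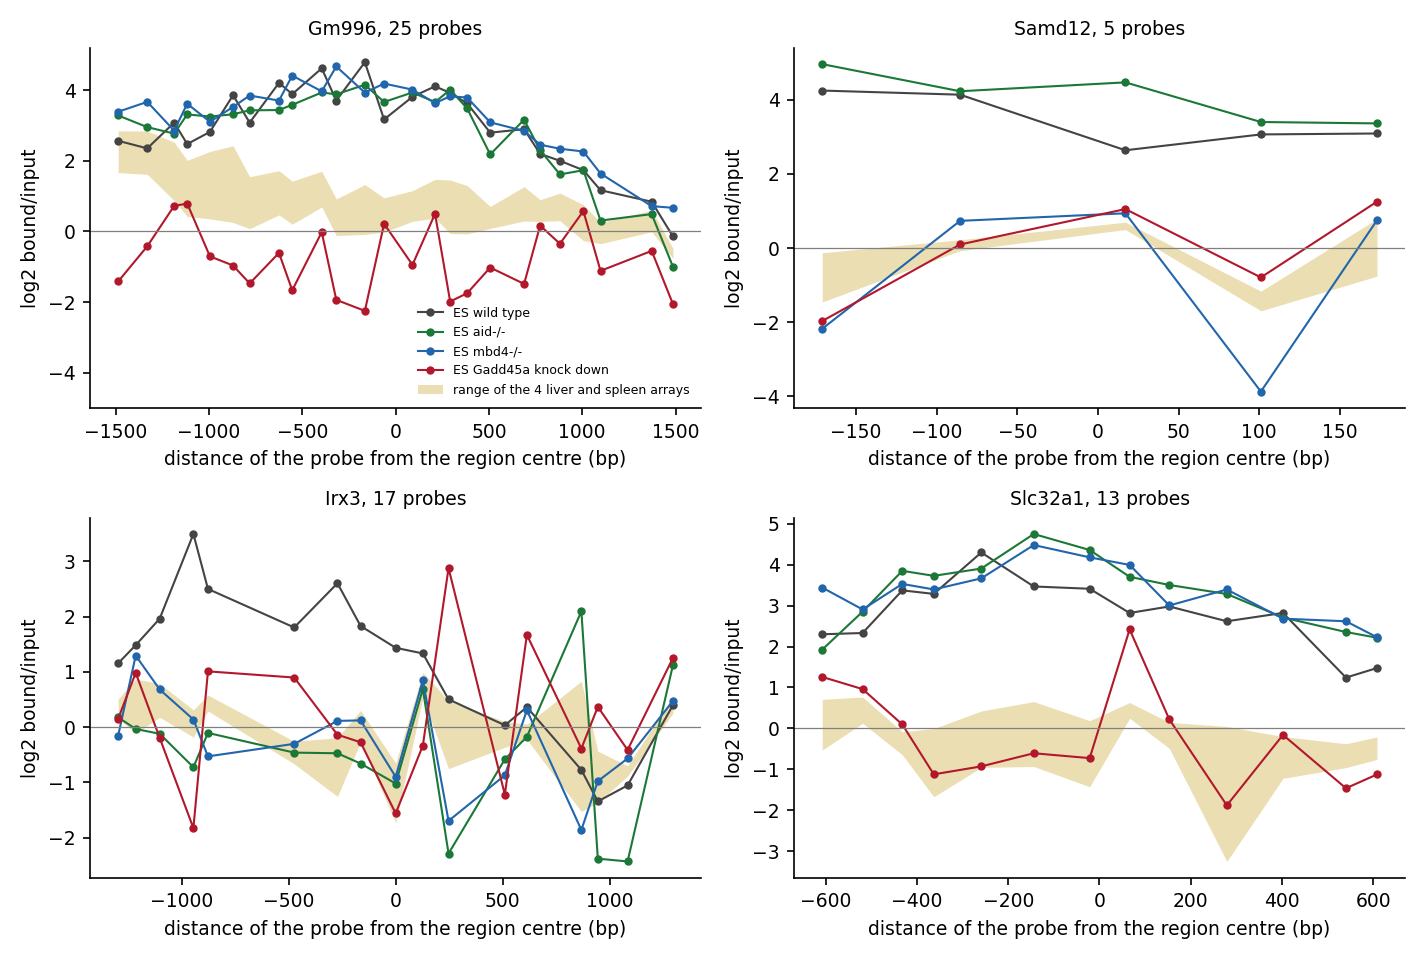
Log2 bound over input of every probe (points; y axis, array median at 0) against its distance in bp from the region centre for Gm996, Samd12, Irx3 (the larger region) and Slc32a1, with the 4 ES arrays as lines and the range of the 4 liver and spleen arrays shaded. For Gm996 and Slc32a1 the Gadd45a line lies below the wild-type and aid-/- lines at every probe, by little at some of them. For Samd12 the mbd4-/- and Gadd45a lines lie below the wild-type and aid-/- lines at every probe, and mostly outside the shaded range. For Irx3 the wild-type line stands above the others on the left side of the region.

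Among the other wide gaps, the homeobox genes Emx2 and Lbx1 read 1.55 and 1.30 on the wild-type array, 1.90 and 2.05 on the aid-/- array, 1.17 and 2.54 on the mbd4-/- array and −1.34 and −1.11 on the Gadd45a array. Their probe SDs on the Gadd45a array were 1.57 and 1.31. These regions are poor in GC, at 41.6% and 47.7%, and after GC correction their Gadd45a values were −0.20 and −0.39, which still was the lowest of the 4 ES arrays for each. Cbln1 had the lowest Gadd45a value of the 313 regions, −2.04, and −1.60 after the correction. Arhgap39, Chst8 (a sulfotransferase), Il27ra (a cytokine receptor), Mmp9 (a matrix protease) and LOC100503248 read −1.55 to −0.97 on the Gadd45a array and 2.10 to 3.14 on the aid-/- array. After the correction these 5 read −1.09 to −0.14 on the Gadd45a array.

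Differences from wild type use the array that chose the regions, so the counts are given beside the share over all regions and nothing is read from them. For a region to be counted as lower or higher, the log2 means had to be 1 or more apart and 75% or more of the probes had to lie on that side. On the aid-/- array 6 of the 313 were lower and 39 higher than wild type (all regions, 2.19% and 8.81%), on the mbd4-/- array 10 and 63 (2.67% and 8.67%), and on the Gadd45a array 100 and 8 (6.46% and 6.58%). Between the arrays the rule did not use, 162 regions (51.8%) were higher on the aid-/- than on the Gadd45a array, where 13.3% of all regions were, and 6 were lower, where 9.81% of all were. The mbd4-/- array was higher than the Gadd45a array for 166 (53.0%; all regions 13.2%) and lower for 3 (all regions 7.51%). The regions high in the tissues too gave 72.1% and 75.7% higher on the aid-/- and mbd4-/- arrays than on the Gadd45a array, so the gap was not confined to the chosen regions. These counts use log2 values, and the arrays differed in range. The 98th percentile of region values was 4.36 on the aid-/- array, 4.33 on the mbd4-/- array and 2.91 on the Gadd45a array. On the wild-type array it was 3.38. With the arrays scaled to the same 98th percentile, 8, 12 and 87 of the 313 were lower than wild type. These are for the aid-/-, mbd4-/- and Gadd45a arrays, where 0.967%, 1.101% and 6.977% of all regions were lower. The counts higher than wild type and those between the arrays the rule did not use were not recomputed on this scale. Between the aid-/- and mbd4-/- arrays 18 were higher on the first and 11 on the second (all regions 3.45% and 2.57%).

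GC content sorted the chosen regions on the Gadd45a array against the other ES arrays. Of the 104 regions with the lowest GC (37.3% to 53.3%), 21 were in the Gadd45a top 10% and 71 in the aid-/- top 10%. Of the 105 with the highest GC (57.5% to 66.7%), these were 39 and 37. Across the 313 regions GC content and signal had a Pearson r of 0.234 on the Gadd45a array, −0.363 on the aid-/- array, −0.168 on the mbd4-/- array and −0.262 on the wild-type array, each as a description across regions. After GC correction 41 of the lowest-GC and 26 of the highest-GC regions were in the Gadd45a top 10%, so the order of these counts turned with the correction.

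The chosen regions stood between other high-signal regions and the rest of the array in how often they lay at a promoter. For 93 of the 313 (29.7%) at least 1 probe lay wholly within a RefSeq promoter window, against 76 of the 1031 (7.37%) regions high in wild-type ES cells and tissues and 6935 of the 11701 (59.3%) regions low on both sides. The rule used no position. For 85 of the 93 the window was that of the gene for which the region is named. The 93 promoter regions were in the top 10% of the aid-/- array in 39.8%, of the mbd4-/- array in 34.4% and of the Gadd45a array in 29.0%, and the other 220 regions in 57.7%, 55.0% and 26.4%. Promoter regions with strong ES signal included B3gnt3 (a glycosyltransferase), with 2.46, 3.14, 3.64 and 1.34 on the wild-type, aid-/-, mbd4-/- and Gadd45a arrays, and Otop3 (a proton channel), with 2.57, 3.50, 3.44 and 0.62, both picked out after their values were seen. Over the Lrrc3b region the Gadd45a mean was the highest, at 3.09, and the wild-type, aid-/- and mbd4-/- means were 1.01, 1.04 and 0.61. Of its probes 1 lay within the promoter window, at bases 82 to 127, a stretch that holds no CG. That probe read 5.07 on the Gadd45a array and 1.26, 1.70 and 0.47 on the wild-type, aid-/- and mbd4-/- arrays.

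In sequence the chosen regions had a median of 4 probes, 491 bp, 55.6% GC and 4.42 CpGs per 100 bases of probe, where all regions had 5 probes, 644 bp, 55.4% and 5.18. The observed over expected CpG ratio was 0.60 against 0.694 for all regions and 0.591 for the other wild-type top regions. The chosen regions were thus poorer in CpG than the average region of the array and close to the other high-signal regions. They were on all 19 autosomes, making up from 1.01% of the regions of chromosome 10 to 3.11% of those of chromosome 4. Another region lay within 5 kb of 108 of the chosen ones. The nearest was itself chosen in 11 of these cases, where 2.33% of all regions were chosen, and the other 97 nearest regions had a median wild-type percentile of 66.9, with 28 of them below the 50th.

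Developmental regulators, the homeobox and other transcription factor genes that pattern the embryo, were the list with the most chosen regions. Of its 454 regions 36 were in the wild-type top 10%, and 30 of those 36 were chosen, which is 6.61% of the list's regions against 2.33% of all regions. Among all 1344 wild-type top regions 23.3% were chosen. The 30 regions belonged to 25 genes, among them homeobox genes of the Irx, Nkx, Hox, Dlx, Barhl and Msx families, Six2, the T-box gene Tbx4, Gata4, Sox10 and Sim2. In the top 10% were 19 of the 30 on the aid-/- array, 12 on the mbd4-/- array and 4 on the Gadd45a array, and their median percentile was 90.8, 89.2 and 54.5. Over all 454 regions of the list the median percentile was 53.5, 59.6, 51.7 and 40.5 on the wild-type, aid-/-, mbd4-/- and Gadd45a ES arrays. A low Gadd45a rank was thus not particular to the chosen regions of the list. The other 283 chosen regions had 145, 141 and 81 in the top 10% and a median Gadd45a percentile of 80.8. The 30 regions also had lower GC, with a median of 51.3% against 55.8%. After GC correction 15, 16 and 3 of the 30 were in the top 10%, with a Gadd45a median percentile of 66.5 against 81.8 for the other chosen regions. In the tissues the 30 regions had median percentiles of 65.6, 49.3, 70.3 and 59.2 in aid-/- liver, mbd4-/- liver, aid-/- spleen and mbd4-/- spleen.

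Irx5 at chr8:94889418-94889853 had the highest wild-type value of these 30, 2.17, and read 3.15, 3.12 and 0.46 on the aid-/-, mbd4-/- and Gadd45a arrays. Hoxc4 at chr15:102863049-102863445 kept a high mean on all 4 ES arrays, 1.69, 2.38, 2.91 and 1.25, though its Gadd45a probes had an SD of 1.70. Hoxd12 read 1.06, 2.41, 2.63 and −0.70. Nkx2-5, a regulator of heart development, had 2 regions with different behaviour on the Gadd45a array, 1.63 for one and 0.75 for the other, against wild-type values of 1.18 and 1.96. Gata4, of heart and endoderm, read 1.18, 2.04, 0.92 and −0.50. Counted as above, 20 of the 30 regions were lower on the Gadd45a array than on the wild-type array (all regions 6.46%) and none was higher. Of the other 283 chosen regions 80 were lower and 8 higher. All were chosen as high on the wild-type array, so nothing is read from the share over all regions. Against the aid-/- array 25 of the 30 were lower on the Gadd45a array, and 137 of the other 283 (all regions 13.3%).

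**Figure D5:**
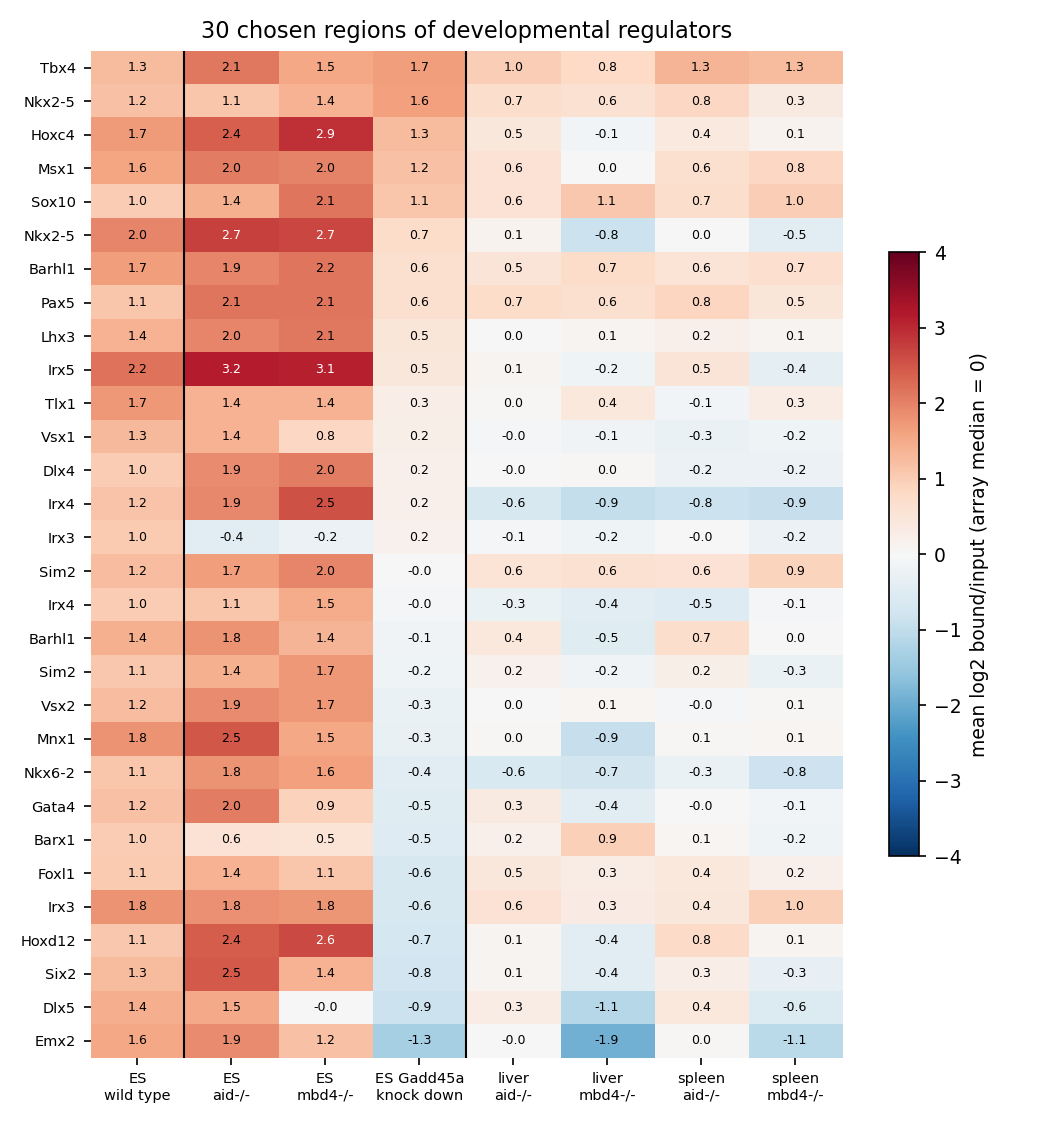
Mean log2 bound over input (colour and printed number, array median at 0) of the 30 chosen regions of developmental regulators (rows, sorted by the Gadd45a value) on the 8 arrays (columns); a gene with 2 regions has 2 rows. The wild-type, aid-/- and mbd4-/- ES columns are mostly red, the Gadd45a column runs from 1.66 (Tbx4) to −1.34 (Emx2), and the tissue columns are mostly paler, with Tbx4 at 0.78 to 1.34 as an exception.

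The neuronal list had 47 of its 184 regions in the wild-type top 10%, and 9 of those 47 were chosen. That is 4.89% of the list's regions against 2.33% of all regions. Among all wild-type top regions 23.3% were chosen. Beside Slc32a1 and Slitrk1 these included Slc17a7 (a vesicular glutamate transporter), the glutamate receptor genes Grin2c and Grik1, the dopamine receptor gene Drd5, Celsr1 (a cadherin of planar polarity) and Sema6b (a guidance factor). Of the 9, 6 were in the top 10% on the aid-/- array, 7 on the mbd4-/- array and 3 on the Gadd45a array. Slc17a7 read 1.50, 2.71, 2.11 and 0.60 on the 4 ES arrays and 0.01 to 0.50 in the tissues. Of the 159 regions of the signalling list, 25 were in the wild-type top 10% and 4 were chosen. That is 2.52% of the list's regions, near the 2.33% of all regions. The 4 were the Wnt ligands Wnt1 and Wnt3, the Notch ligand Dll3 and the BMP-family ligand Gdf7. None of the 4 was in the top 10% on the mbd4-/- or the Gadd45a array, and Wnt3 and Gdf7 read 0.01 and 0.02 on the Gadd45a array against 1.37 and 1.68 on the wild-type array.

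In the blood and immune list 12 of 58 regions were in the wild-type top 10% and 4 were chosen (6.90%, all regions 2.33%), a set of interest because spleen is rich in lymphocytes. Lyl1, a transcription factor of blood progenitors, at chr8:87225427-87225843 read 2.86, 3.68, 3.31 and 1.12 on the 4 ES arrays, 1.02 (aid-/-) and 2.22 (mbd4-/-) in liver and 0.25 (aid-/-) and 0.29 (mbd4-/-) in spleen. Both spleen arrays were below both liver arrays at this region. Pax5, the B-cell transcription factor, read 1.10, 2.14, 2.15 and 0.64 on the ES arrays and 0.47 to 0.85 in the tissues, with liver at 0.74 and 0.64 and spleen at 0.85 and 0.47, so the organs overlapped. Runx3 read 1.11, 1.68, 1.66 and 0.51 on the ES arrays and Itgb7, a lymphocyte integrin, 1.11, 1.25, 1.92 and 0.68. For Runx3 the aid-/- and mbd4-/- arrays read 0.24 and 0.38 in liver and 0.23 and 0.64 in spleen, so the organs overlapped. For Itgb7 they read 0.55 and 0.76 in liver and 1.04 and 0.98 in spleen. Both spleen arrays were thus above both liver arrays at Itgb7, the reverse of Lyl1.

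The remaining lists gave few or no chosen regions. Of 26 regions of germline and piRNA genes 23 were in the wild-type top 10% and 2 were chosen (7.69%, all regions 2.33%). These were Tdrkh and Tdrd6, both just above the threshold at 1.09 and 1.05. None was chosen of the 44 imprinted, 28 protocadherin, 24 pluripotency, 8 liver and 74 housekeeping regions, of which 3, 9, 3, 1 and 1 were in the wild-type top 10%. Of the methylation machinery list 1 of 40 regions was chosen (2.5%), Zbtb4, a protein that binds methylated CpG, with 1.31, 1.47, 1.36 and 0.80 on the 4 ES arrays. The fibroblast list also had 1 of 30 (3.33%), Fbln2, with 1.46, 1.62, 1.90 and 0.67.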

How the data were processed

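Methylated DNA was measured by mDIP on mouse CpG island arrays, antibody-bound DNA in Cy5 and input DNA in Cy3 of the same sample, with the same dyes on all 8 arrays, per the labels' protocols. Spot intensity values in the deposited scanner files came from Agilent Feature Extraction 10.7.3.1 (ES mbd4-/- and Gadd45a) or 10.9.1.1 (the other 6), background-subtracted and dye-normalised, with positions in mm9, per the file headers. The log10 ratio in the deposited files and the deposited value table, a score whose log base and scale are unknown, served as a check and as an alternative.

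From the processed signals, log2 of bound over input was computed for 85850 autosomal probes of 45 to 60 bases with Python 3.11.15, numpy 2.4.6 and pandas 2.3.3, then the autosomal median of each array was subtracted, without loess or quantile normalization. Regions, ranks and differences follow the report, and the steps were tested on simulated data. Between 65.5% and 92.3% of bound probes were well above background per array, and 87.6% to 98.8% of those in the chosen regions. Gene names come from the Gadd45a file and differ in the other annotated file for 57 of the 313 regions. Named regions were drawn from the 10 highest and the 10 lowest by mean percentile over the 3 other ES arrays. Others came from the 10 with the widest gap between these arrays, the 10 highest on the wild-type array and the 10 lowest in tissues. Regions in a gene list or next to the threshold were also used, with exceptions stated. Not every region of these groups is named in the text. The members and lists were chosen with earlier results of these data known. The normexp alternative (limma 3.58.1, offset 50) used median signals, since mean signals are not used here. RefSeq names matched 278 of 279 gene names, 25 as older synonyms. Promoter windows matched the 5′ to 3′ order of probes in 1684 of 1684 plus-strand and 1658 of 1661 minus-strand regions.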

Additional observations from a re-analysis of the deposited data

How the results depend on the processing

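The number of chosen regions, their share in the top 10% of each other ES array and the number lower than wild type were recomputed under 15 alternatives, 14 planned and 1, the choice on the scan 1 tissues alone, added after seeing the data. A share was taken as unmoved within its 95% exact binomial interval, which covers counting over regions only, and a count within 1.5 times, which held for 89 of 105 values. Leaving out each tissue array in turn gave 282 to 292 regions, with 50.5% to 50.7% in the top 10% on the aid-/- array, 47% to 47.6% on the mbd4-/- array and 26% to 27.6% on the Gadd45a array, and 6, 10 and 85 to 93 regions lower than wild type. In these settings, as in the main one, 2.19%, 2.67% and 6.46% of all regions were lower. Normexp correction gave 1, 5 and 82 regions lower than wild type on the aid-/-, mbd4-/- and Gadd45a arrays and a Gadd45a share of 16.5%. Of all regions 0.037%, 0.089% and 5.09% were lower under it, so the background moved too. The deposited value table gave 24, 21 and 135 lower (all regions 3.216%, 1.835% and 7.955%) and a Gadd45a share of 22%. The median of the probes gave an mbd4-/- share of 42.8%. Regions of 5 or more probes gave an aid-/- share of 46.7%, with 11 lower on the aid-/- array and 55 on the Gadd45a array. Of all regions of that size 1.835% and 4.431% were lower on these arrays. The top 5% on every array gave 176 regions, shares of 63.6%, 68.8% and 62.5% in that top 5%, and 3 and 5 lower on the aid-/- and mbd4-/- arrays (all regions 2.19% and 2.67%). The causes of these shifts were not tested, apart from the stricter limits themselves. No paired analysis was possible because each group is 1 array. With no replicate array, no value here separates genotype from array, scan or culture.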
